A study of Mus musculus with 6 samples.

Results

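The genes described here are 37 lysosome and autophagy genes, measured in mouse T-cell acute lymphoblastic leukaemia cells that were sorted by MYC-linked GFP. The members were taken from a list of symbols that was chosen with earlier results of these data known. All 37 were found among the 18193 genes on the arrays. The leukaemias carried Notch1[delta]E, an activated form of the NOTCH1 receptor, together with mycGFP, and this genotype was shared by both groups. Cells of C57BL/6 mice, 12 weeks of age, came from spleens of congenic recipients 4 weeks after transplantation, and both groups were CD25+. Mononuclear cells were sorted by mCherry as well as GFP. MycGFP negative cells (3 arrays) and MycGFP positive cells (3 arrays) thus differed in GFP, and each group was numbered 1 to 3. The design describes 3 independent leukaemias, without saying which number is which, and the labels do not tell whether the arrays of one group came from separate mice. The p-values therefore measure the spread between these arrays, which may partly be technical.

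The lysosome is the acidic compartment in which cells degrade proteins, lipids, glycans and whole organelles. Its hydrolases, among them the cathepsin proteases, are delivered from the Golgi or by endocytosis, while autophagy encloses cytoplasm in a double membrane that then fuses with the lysosome. Transcription factors of the MiT/TFE family, TFEB among them, activate many of these genes through the CLEAR element, whose core contains the E-box that MYC and MAX also bind. In lymphocytes, cathepsins also process antigens, and autophagy is known for its part in the survival of resting T cells. The members were grouped by role as 9 cathepsins, 10 other hydrolases and activators, 9 membrane, transport and regulatory genes, and 9 autophagy genes.

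Myc, the gene tied to the sort, was 2.58-fold higher in MycGFP positive cells (limma, adjusted p = 0.0329), and Il2ra, which encodes CD25, did not pass the test (adjusted p = 0.777). The median intensity over all probe sets was 30.5 to 32.7 on the 6 arrays. The 3′ to 5′ ratio of the Gapdh control probe sets ran from 1.58 to 1.89 in the negative group and from 1.48 to 1.58 in the positive group, with the groups nearly touching. The same ratio for actin overlapped, at 1.54 to 1.87 against 1.72 to 1.85. The part of RNA quality in the results was not tested.

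The protease genes Ctsl and Ctsd and the lipase gene Lipa fell in MycGFP positive cells, by 3.51-fold, 1.74-fold and 3.18-fold, while the glucuronidase gene Gusb rose 3.92-fold and the autophagy gene Atg5 rose 2.76-fold. These were the 3 members called lower and the 2 called higher among 37 (limma, two-sided, Benjamini-Hochberg adjusted p under 0.05 over all genes). Over all genes tested, 1.51% were called lower and 4.62% higher, against 8.11% and 5.41% of the members. The share called lower was above that of all genes and the share called higher was near it. Since the members were chosen with earlier results of these data known, these shares describe the list and are no independent support for a decrease. The median log2 difference, MycGFP positive minus negative, was -0.27 over the members and 0.01 over all genes. A difference below 0 was found for 25 of 37 members and for 8801 of 18193 genes. For 12 members the 3 positive values lay below the 3 negative ones (32.4%, against 11.2% of all genes), and for 5 they lay above (13.5%, against 17.0% of all genes). In RNA from sorted bulk cells, fewer cells that express a gene and less of its RNA per cell cannot be told apart.

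The array numbers paired the arrays by their correlations, so values with that number as a blocking term are given where it changed the call of a gene named here. Under that block 5 members were called lower and 4 higher, against 1.95% and 5.75% of all genes. The members called without the block all passed with it, and Ctsh and Sqstm1 joined the lower ones and Gaa and Cln3 the higher ones.

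**Figure D1:**
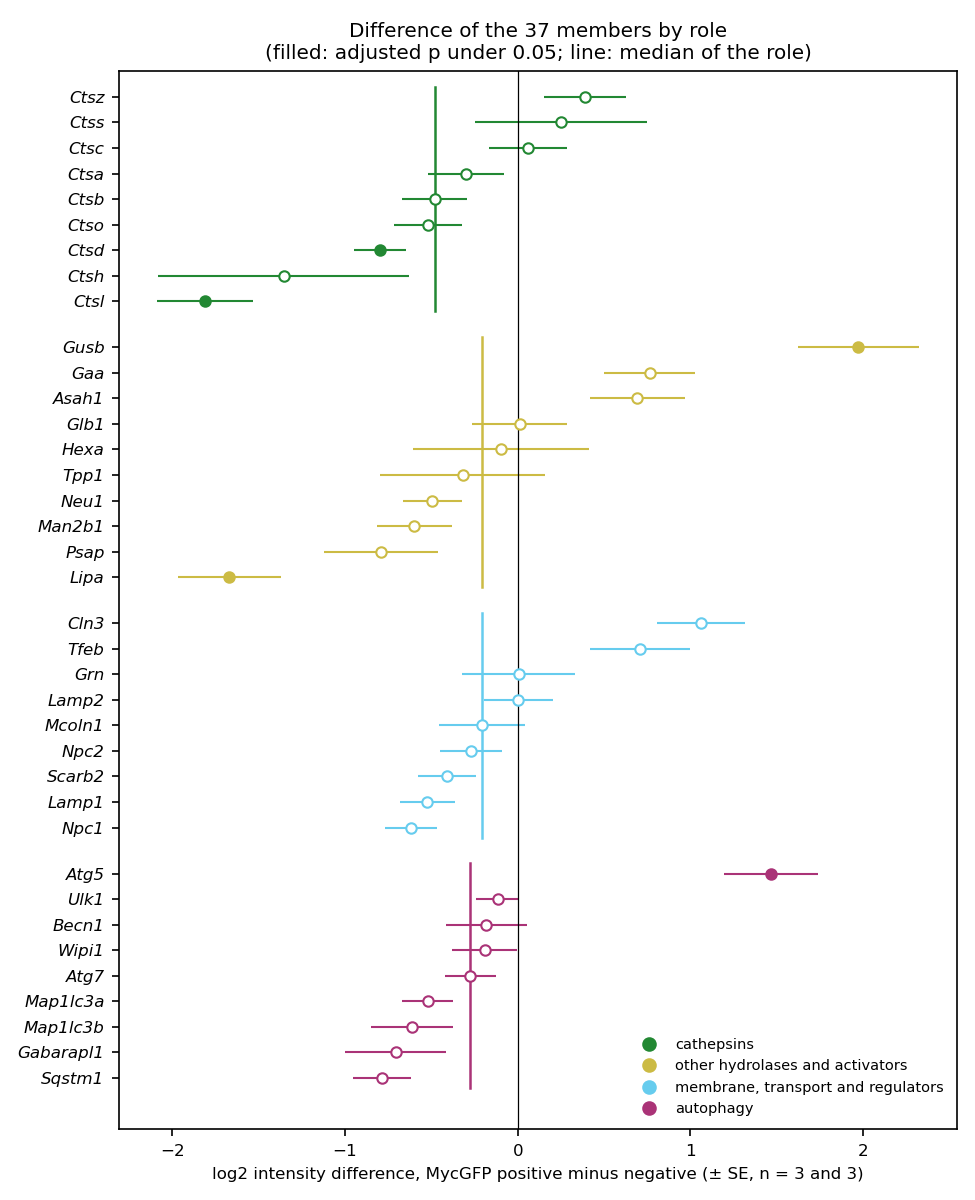
The x axis is the log2 intensity difference, MycGFP positive minus negative, with limma's SE (3 arrays a group), for each of the 37 members on the y axis, ordered within their role. Filled points have an adjusted p under 0.05, and vertical lines are the role medians, -0.48 for the cathepsins, -0.21 for other hydrolases, -0.21 for membrane and regulatory genes and -0.27 for autophagy genes.

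Promoter windows of 31 members, from 250 bases before to 50 bases after a gene's start, were scanned for the E-box CACGTG and for TCACGTGA, the core of the CLEAR element. Both motifs read the same on either strand, and every TCACGTGA contains a CACGTG. The windows come from RefSeq, build GRCm38.p6, and a gene can have more than 1. Ctsb, Ctsh, Asah1, Becn1, Map1lc3a and Npc1 were not matched. The E-box stood in 10 of 36 member windows, those of 10 genes, and in 7.15% of all 32851 windows. The CLEAR core stood in 4 of the member windows, those of Ctsa, Ctsd, Cln3 and Mcoln1, and in 0.974% of all windows. The 250 bases before the start are given for the called members with an E-box and for Cln3, because these members differed in opposite directions and share the motif. They read 5′ to 3′ on the gene's strand with each E-box in capitals. Ctsl lies at chr13:64370521-64370770 and Ctsd at chr7:142387828-142388077, Cln3 at chr7:126583237-126583486, all on the minus strand, and Atg5 at chr10:44268089-44268338 on the plus strand.
Ctsl: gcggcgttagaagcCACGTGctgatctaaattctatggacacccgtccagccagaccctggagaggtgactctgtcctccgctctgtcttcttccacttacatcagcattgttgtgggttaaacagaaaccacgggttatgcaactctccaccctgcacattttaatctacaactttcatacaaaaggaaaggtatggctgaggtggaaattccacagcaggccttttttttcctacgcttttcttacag
Ctsd: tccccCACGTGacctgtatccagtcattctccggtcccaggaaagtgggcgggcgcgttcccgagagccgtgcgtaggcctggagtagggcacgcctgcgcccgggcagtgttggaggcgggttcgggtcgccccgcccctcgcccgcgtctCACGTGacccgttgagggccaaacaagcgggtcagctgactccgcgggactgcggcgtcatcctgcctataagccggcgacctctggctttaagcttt
Atg5: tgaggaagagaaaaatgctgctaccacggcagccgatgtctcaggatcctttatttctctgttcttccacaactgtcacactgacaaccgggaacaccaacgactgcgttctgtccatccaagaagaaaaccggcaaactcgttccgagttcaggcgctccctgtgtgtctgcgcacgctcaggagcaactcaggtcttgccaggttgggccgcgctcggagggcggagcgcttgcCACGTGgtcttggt
Cln3: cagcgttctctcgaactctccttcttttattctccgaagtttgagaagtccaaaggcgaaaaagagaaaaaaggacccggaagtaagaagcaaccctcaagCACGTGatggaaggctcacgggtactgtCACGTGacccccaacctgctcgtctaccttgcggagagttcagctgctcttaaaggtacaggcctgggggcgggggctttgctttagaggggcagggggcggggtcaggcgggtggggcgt

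The E-box began 236 bases before the start of Ctsl and 14 bases before that of Atg5. Ctsd had an E-box at 245 bases and a CLEAR core at 98 bases before its start, and Cln3 an E-box at 149 and a CLEAR core at 121 bases. Lamp1 had 4 E-boxes within 61 bases of its start, at chr8:13158911-13159210 on the plus strand, given here because no other member had as many. Gaa (chr11:119267713-119268012, plus strand) had 1 E-box, at 140 bases, shown with them as a member with higher values.
Lamp1 at 61 bases: aagatatCACGTGgtccagc
Lamp1 at 45 bases: cagcgccCACGTGatgccga
Lamp1 at 28 bases: cgactggCACGTGaccacat
Lamp1 at 15 bases: accacatCACGTGcggaacg
Gaa at 140 bases: gtgcgatCACGTGtttgact
The windows of Lipa and Gusb, the remaining called members, held no CACGTG, which says only that these letters are not in those windows. The 10 members with an E-box had a median log2 difference of -0.24, from -1.81 to 1.47, with 2 called lower and 1 higher. The 21 without one had a median of -0.27, from -1.67 to 1.97, with 1 called lower and 1 higher. Over all genes 1.51% were called lower and 4.62% higher. The motif was found beside rises and falls alike, and the medians of both sets were close. The part of the motif in these differences was not tested.

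Among the 9 cathepsin genes 2 fell and none rose (limma, over all genes), against 1.51% and 4.62% of all genes. Their median log2 difference was -0.48. Before adjustment, 4 were lower and none higher at p under 0.05, against 7.35% of all genes lower and 14.7% higher. Ctsl encodes cathepsin L, a cysteine endopeptidase of the lysosome. Its intensity was 1276, 1978 and 929 on negative arrays 1, 2 and 3, and 375, 381 and 382 on the positive arrays. The 3 positive values were almost equal and lay far below the lowest negative one, so the spread was on the negative side. The fitted log2 difference of -1.81 (SE 0.28) had an adjusted p of 0.0243 by limma, from a mean of 1394 ± 534 to 379 ± 3.89 (SD, n = 3).

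Ctsd encodes cathepsin D, the main aspartic protease of the lysosome. It was measured at 876, 974 and 785 on negative arrays, against 557, 507 and 451 on positive arrays. The groups did not overlap, and all 3 pairs of same-numbered arrays differed by a similar amount, at log2 differences of -0.65, -0.94 and -0.80. Limma gave -0.80 with an SE of 0.15 and an adjusted p of 0.0372.

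The other cathepsins did not pass the test. Ctsb, encoding the cysteine protease cathepsin B, had values of 2081, 1764 and 2609 in negative and 1628, 1632 and 1326 in positive cells. Its groups were separate but close, at a log2 difference of -0.48 (limma, adjusted p = 0.207). Ctso was at -0.52 (adjusted p = 0.19) and Ctsa, whose carboxypeptidase also protects beta-galactosidase and neuraminidase, at -0.30 (adjusted p = 0.519), both with overlapping groups. Ctsz, a carboxypeptidase gene, at 0.39, Ctss, a protease of antigen processing, at 0.25 and Ctsc, which activates granule proteases, at 0.061 had differences above 0 (adjusted p = 0.419 to 0.927). Ctsc, with the smallest difference of the cathepsins, showed 1001, 1061 and 1422 against 1521, 967 and 1165, a full overlap.

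Values of Ctss and Ctsh varied with the array number in both groups. In order of that number Ctss gave 641, 446 and 261 in negative cells, and 886, 499.8 and 284 in positive cells. It was brightest on the arrays numbered 1 and dimmest on those numbered 3 in both groups. Ctsh, an aminopeptidase gene, showed 128, 35.02 and 29.8 on negative arrays, against 44.6, 11.4 and 15.9 on positive arrays. Both groups were again brightest on the arrays numbered 1. Within numbers Ctsh was lower on each positive array, at log2 differences of -1.52, -1.62 and -0.91. It had an adjusted p of 0.355 in the fit without the number and of 0.0358 with it as a block, and 3 of its 6 values lay below the array's median, so the level is close to background.

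**Figure D2:**
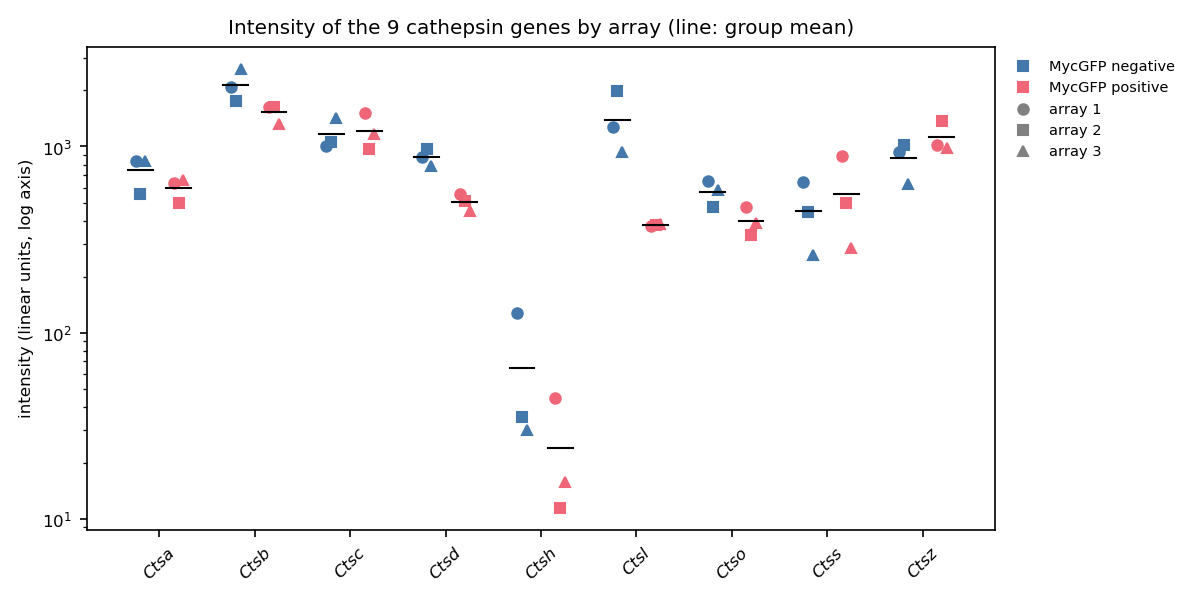
The y axis is intensity on a log axis and the x axis the 9 cathepsin genes, with blue points for MycGFP negative and red for MycGFP positive arrays, symbols for the array number and lines for group means. Ctsl and Ctsd show separate groups, while the 2 groups of Ctss span 261 to 641 and 284 to 886.

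Of the 10 other hydrolases and activators 1 was called lower and 1 higher, or 10% each, against 1.51% and 4.62% of all genes. Their median log2 difference was -0.21, against 0.01 over all genes, with 4 differences above 0 and 6 below. Lipa encodes lysosomal acid lipase, which releases cholesterol and fatty acids from lipoprotein lipids. Its intensity was 2980.1, 3131 and 3410.01 in negative and 1126, 630.2 and 1395 in positive cells. The negative values were tight, and every positive value was less than the lowest of them by a wide margin. The fitted log2 difference of -1.67 (SE 0.30) had an adjusted p of 0.034 by limma.

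Gusb encodes beta-glucuronidase, which degrades glycosaminoglycans. It was at 108, 179.9 and 256 on negative arrays, against 564, 885 and 603 on positive arrays. It moved opposite to Lipa, and the lowest positive value was above the highest negative one. The fitted log2 difference of 1.97 (SE 0.35) had an adjusted p of 0.0331 by limma.

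Gaa, encoding the acid alpha-glucosidase that breaks down glycogen, also had separate groups, with 89.6, 84.2 and 133 in negative and 159, 136 and 227 in positive cells. The gap between the groups was narrow. Its log2 difference of 0.76 had an adjusted p of 0.158 (limma), and of 0.0444 with the block. Asah1, encoding acid ceramidase, had a difference of 0.69 (adjusted p = 0.212), with positive array 3 inside the negative range at 585 against a negative maximum of 649.7.

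Neu1, encoding a sialidase, and Psap, encoding the precursor of the saposin activators, had separate groups with lower values on the positive arrays. Neu1 was at 173, 141 and 203 against 131, 117 and 116, a log2 difference of -0.49 (limma, adjusted p = 0.157). Psap was at 1823, 3926 and 1708 against 1345, 1283 and 1369.8, at -0.79 (adjusted p = 0.233). One array, negative array 2, stood far above the others for Psap. Man2b1, an alpha-mannosidase gene, was at -0.60 (adjusted p = 0.174), with overlapping groups.

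Tpp1, Hexa and Glb1 had overlapping groups and no difference near the threshold. Tpp1, a tripeptidyl peptidase gene, was at 1528, 1342 and 1513 on negative arrays, against 538, 2018 and 1472 on positive arrays. Its 2 extreme values were both on the positive side. Hexa, the beta-hexosaminidase alpha subunit gene, was at 189.98, 105 and 57.7 against 156, 91.8 and 65.8, so like Ctss it was brightest on both arrays numbered 1. Glb1, the beta-galactosidase gene, was at 250.4, 273 and 340.2 against 208, 278 and 412, with a log2 difference of 0.011 (adjusted p = 0.99), the smallest of its role.

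None of the 9 membrane, transport and regulatory genes passed the test, and their median log2 difference was -0.21. Lamp1 encodes a major glycoprotein of the lysosomal membrane. Its values were 2935, 2943 and 3937 in negative and 2316, 2192 and 2259.9 in positive cells. The groups were separate, at a log2 difference of -0.52 (limma, adjusted p = 0.117). Its paralogue Lamp2, which also serves chaperone-mediated autophagy, was at 2901, 2433 and 3065 against 2193, 2940.2 and 3374. Those groups overlapped fully, and the difference was 0.0027 with an SE of 0.20 (adjusted p = 0.997). Whether the 2 paralogues differed from each other in their response was not tested.

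Npc1, the cholesterol exporter of the lysosomal membrane, was at 399, 329 and 339 on negative arrays, against 214, 220.3 and 263 on positive arrays. These groups were also separate, with a log2 difference of -0.62 (limma, adjusted p = 0.0699). Npc2, its soluble partner, was at -0.27 (adjusted p = 0.465), with overlapping groups. Lipa, Npc1 and Npc2, which act in turn on lysosomal cholesterol, all had differences below 0, and only Lipa passed. Scarb2, which carries glucocerebrosidase to the lysosome, had separate groups as well, with 1556, 1667 and 2155 against 1245, 1465 and 1311, a log2 difference of -0.41 (adjusted p = 0.228).

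Cln3, a lysosomal membrane protein gene, and Tfeb, the transcription factor gene, had separate groups with higher positive values, at levels near background. Cln3 was at 18.4, 19.4 and 27.1 in negative and 37.02, 39.3 and 60.5 in positive cells. All 3 negative values lay below the array medians. Its log2 difference of 1.06 had an adjusted p of 0.0665 (limma), and of 0.0298 with the block. Tfeb was at 22.8, 22.6 and 25.01 against 60.3, 32.4 and 28.8, at 0.71 (adjusted p = 0.225), and 4 of its 6 values were below the array medians. Mcoln1, a calcium channel gene of the lysosome, at -0.21 and Grn, the progranulin gene, at 0.0053 had overlapping groups (adjusted p = 0.713 and 0.996).

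Of the 9 autophagy genes 8 had differences below 0, none of which passed, while Atg5 rose. Atg5 encodes a part of the complex that attaches LC3 proteins to lipid. It was at 314, 191 and 264 on negative arrays, against 939, 627 and 565 on positive arrays. Each positive value was well above the highest negative one. The fitted log2 difference of 1.47 (SE 0.27) had an adjusted p of 0.036 by limma.

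Sqstm1 encodes p62, a receptor that brings ubiquitinated cargo to the autophagosome. Its values were 890.4, 733 and 1044 in negative and 519.7, 469 and 544 in positive cells. The groups were separate and the same-numbered pairs alike, at log2 differences of -0.78, -0.64 and -0.94. The fitted difference of -0.79 had an adjusted p of 0.0517 (limma), just above the threshold, and of 0.0476 with the block.

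Map1lc3a and Map1lc3b encode proteins that are anchored in the autophagosome membrane. Map1lc3a was at 324, 254 and 313 on negative arrays, against 213, 214 and 191 on positive arrays, a log2 difference of -0.52 (limma, adjusted p = 0.0992). Map1lc3b was at 3252, 4468 and 3289 against 3169.8, 2120.4 and 1993, at -0.61 (adjusted p = 0.198). Both had separate groups, although positive array 1 of Map1lc3b came close to the negative range. Gabarapl1 was at 809, 592 and 455 against 388, 271 and 477, at -0.71 (adjusted p = 0.231), with positive array 3 inside the negative range.

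None of the remaining autophagy members, Ulk1, Becn1, Wipi1 and Atg7, passed the test. Ulk1, the initiating kinase gene, was at 162, 176 and 152 in negative and 157, 152 and 142 in positive cells, a log2 difference of -0.11 with an SE of 0.12 (limma, adjusted p = 0.68). Its groups overlapped. Becn1, a subunit gene of the lipid kinase complex, at -0.18, Wipi1, which binds the kinase's product, at -0.19 and Atg7, the activating enzyme gene of LC3 attachment, at -0.27 overlapped too (adjusted p = 0.739, 0.644 and 0.358).

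**Figure D3:**
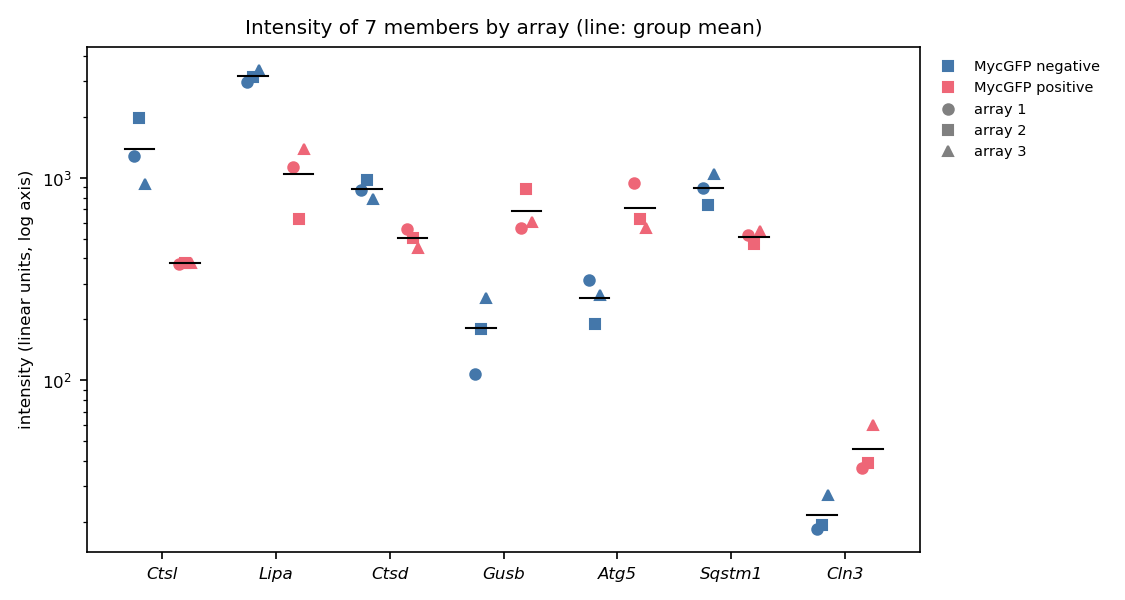
The y axis is intensity on a log axis for 7 members on the x axis, with blue points for MycGFP negative and red for MycGFP positive arrays, symbols for the array number and lines for group means. All 7 have separate groups, with Ctsl, Lipa, Ctsd and Sqstm1 lower and Gusb, Atg5 and Cln3 higher on positive arrays. Each gene is to be read against itself, since levels of different probe sets do not compare.

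Of the 37 members 29 had more than 1 probe set, and the 54 further probe sets gave a view of the same arrays with other probes. Over all probe sets that name 1 gene, 2.16% were called lower and 4.76% higher (limma, adjusted over probe sets). Of the 91 probe sets of members, 11 were called lower, those of Ctsb, Ctsd, Ctsl, Ctso, Lipa, Map1lc3b and Sqstm1, and 3 higher, those of Atg5 and Gusb. The Ctsb call came from a probe set near background, at 36.6, 38.1 and 28.3 in negative and 18.3, 16.4 and 16.7 in positive cells. Its other probe sets, the brightest included, were not called (limma, adjusted p = 0.205 to 0.947). Lipa was called by all 3 of its probe sets, at log2 differences of -1.67, -1.76 and -2.06, and Gusb by both, at 1.97 and 1.64.

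Several members differed more on a probe set other than the one chosen by level. The second Ctso probe set read 218, 231 and 246 on negative arrays, against 64.2, 68.3 and 67.2 on positive arrays. These values were tight in both groups, with a log2 change of -1.80 (adjusted p = 0.01003 by limma over probe sets), against -0.52 for the probe set used. The second Sqstm1 probe set read 750.1, 400.2 and 260 against 116, 97.5 and 113, at -1.98 (adjusted p = 0.036). The probe set used for Sqstm1 passed on this footing too, at an adjusted p of 0.0498. Of the 4 Map1lc3b probe sets 2 were called lower, at -0.67 (adjusted p = 0.0318) and -2.67 (adjusted p = 0.0406).

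For Atg5 and Ctsl the further probe sets gave less. The Atg5 call rested on 1 of 3 probe sets, as the others had log2 differences of 0.51 and 0.17 (limma, adjusted p = 0.247 and 0.688 over probe sets). The second Ctsl probe set read 828, 355 and 108 in negative and 151, 146 and 49.6 in positive cells. Its groups overlapped, at a difference of -1.62 (adjusted p = 0.31). The second Cln3 probe set, at or below 15.7 on every array, had a difference of -0.14, opposite to the one used. With Cln3, 9 members had at least 1 further probe set of the opposite sign, the others being Atg7, Becn1, Ctsc, Lamp2, Mcoln1, Neu1, Ulk1 and Wipi1.

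**Figure D4:**
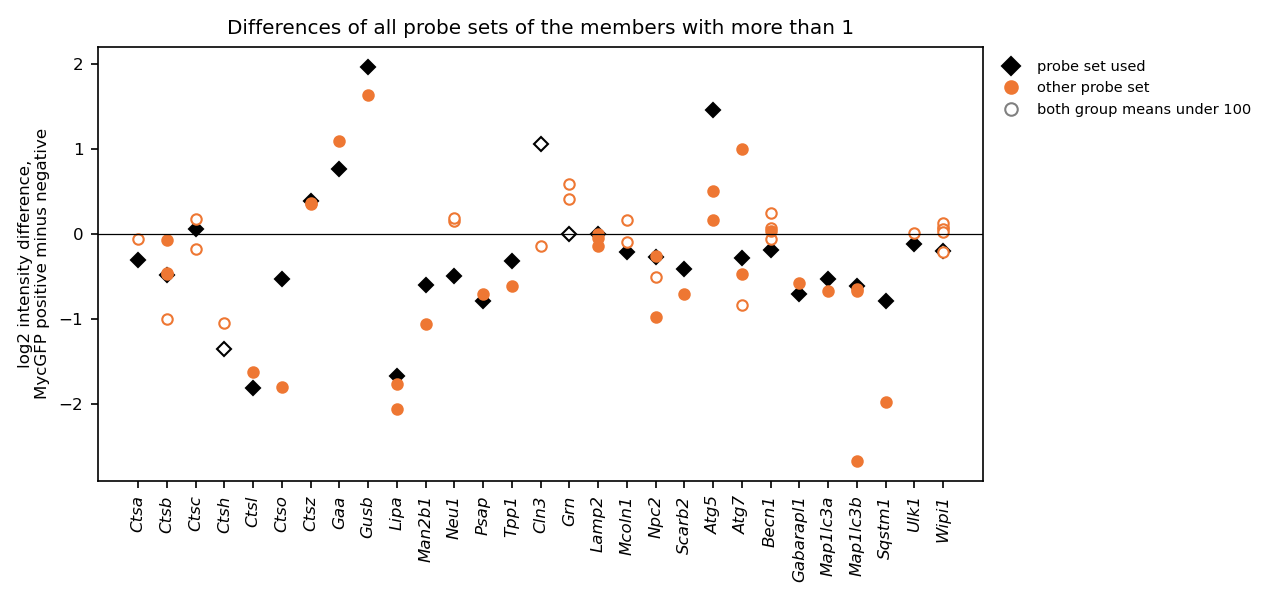
The y axis is the log2 intensity difference, MycGFP positive minus negative, of every probe set of the 29 members with more than 1, named on the x axis. Diamonds mark the probe set used and circles the others, and open symbols have both group means under 100. The probe sets of Lipa and Gusb lie together, while those of Map1lc3b run from -2.67 to -0.61 and those of Atg5 from 0.17 to 1.47.

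Averaged over the genes of a role, the cathepsins and the autophagy genes separated the groups on all arrays and the other roles did not. Except for the autophagy genes and the membrane and regulatory genes, this changed when medians took the place of means. With each gene centred on its mean of 6 arrays, the cathepsins stood at 0.50, 0.20 and 0.064 on negative and at 0.056, -0.39 and -0.43 on positive arrays (log2). The margin between negative array 3 and positive array 1 was thus very small. By medians the cathepsins overlapped, with negative array 2 at -0.0032 and positive array 1 at 0.0029. The autophagy genes stood at 0.14, 0.098 and 0.078 against -0.0092, -0.20 and -0.11. Other hydrolases, at -0.024, -0.013 and 0.12 against -0.14, 0.0063 and 0.059, overlapped, as did the membrane and regulatory genes. By medians the other hydrolases were separate, the closest arrays being negative array 2 at -0.023 and positive array 3 at -0.049. All genes together stood at -0.070 to -0.027 in negative and 0.028 to 0.065 in positive cells, so the cathepsin and autophagy averages ran against that of all genes. The average of 10 T cell markers did so too, at 0.16, 0.15 and 0.11 in negative cells, against -0.25, -0.065 and -0.11.

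**Figure D5:**
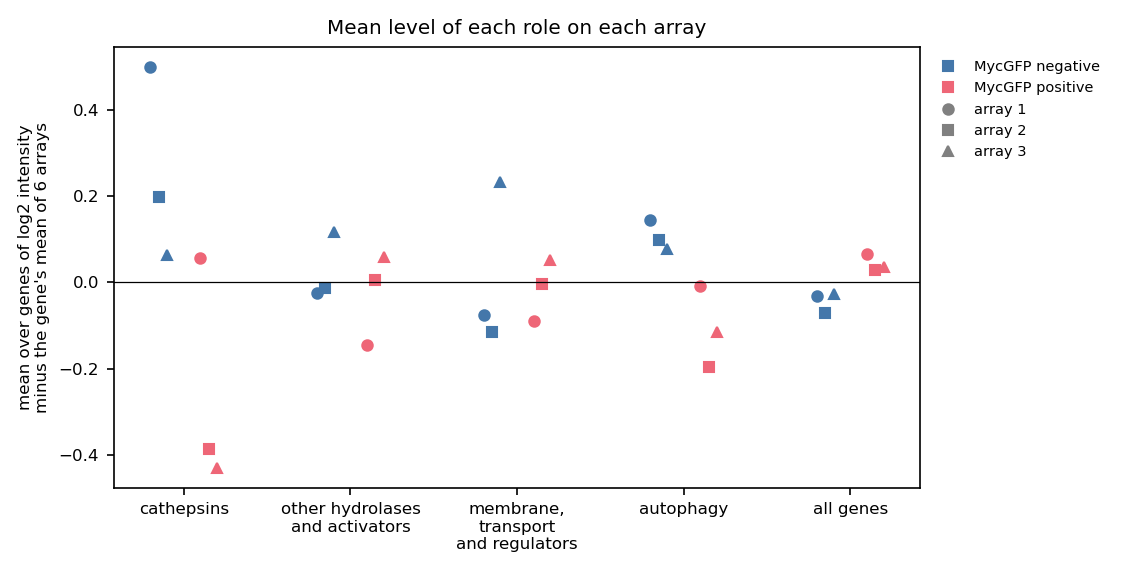
The y axis is the mean, over the genes of each role on the x axis, of the log2 intensity minus the gene's mean of 6 arrays, with 1 point per array, blue for MycGFP negative and red for MycGFP positive. The cathepsins run from 0.50 on negative array 1 to -0.43 on positive array 3, and all genes stay between -0.070 and 0.065.

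Markers of other spleen cells were read beside these values, since macrophages and neutrophils are rich in lysosomes. T cell markers were bright, all 10 lying above the array medians on every array, and 1 of them, Cd5, was called lower at 1.57-fold (limma, adjusted p = 0.0411), a call lost with the block (0.0634). For 5 of the 10 (50%, against 11.2% of all genes) the positive values lay below all negative ones. The 16 measured markers of macrophages and monocytes summed to 459 to 1391 in negative and 359 to 569 in positive cells, none was called, 8 of them, Adgre1, Cd14 and Itgam included, lay below the array medians on all 6 arrays, and C1qb and Vcam1 above on all 6. The highest sum was that of negative array 2, where Lyz2 stood at 850.3 against 30.1 to 168 elsewhere. The 7 neutrophil markers summed to 12994 on negative array 2 and to 3136 on positive array 2, and to 149 to 1172 on the other arrays. Within pairs of same-numbered arrays the neutrophil marker S100a9 was lower on each positive array, at log2 differences of -1.45, -2.07 and -0.90, and was called lower with the block (adjusted p = 0.0482, against 0.743 without it). Ngp was also lower in all 3 pairs, without a call (0.0726 with the block). The other neutrophil markers, S100a8, Elane, Mpo, Camp and Ltf, were each higher on the positive array in at least 1 pair. S100a8, for example, was at 0.70, -2.36 and 0.70. The members Ctsd, Ctsl, Psap, Atg7, Becn1, Map1lc3b and Ulk1 were brightest on negative array 2 as well, and the part of neutrophils in their values was not tested beyond leaving arrays out. Without both arrays numbered 2 the log2 differences were -1.53 for Ctsl, -1.35 for Lipa, -0.73 for Ctsd, 1.81 for Gusb and 1.34 for Atg5, each in the same direction, although no gene at all passed with 2 arrays a group (smallest adjusted p = 0.201, with 1728 higher and 759 lower genes where p under 0.05 was left unadjusted). The 6 measured B cell markers summed to 231 to 818 in negative and 136 to 505 in positive cells, and Ms4a1 was at 117 and 172 on the arrays numbered 1 against 9.43 to 20.6 on the others. Cd79b was lower in all 3 pairs, at -0.76, -1.48 and -1.60, and was called lower with the block (adjusted p = 0.0452, against 0.445 without it). Cd22 was lower in all 3 pairs without a call. Cd79a, Ms4a1, Pax5 and Ebf1 were each higher on the positive array in at least 1 pair, Ms4a1 by 0.56 in pair 1. Ctss, Ctsh and Hexa were brightest on the arrays numbered 1 of both groups, like Ms4a1, and so were Ctso and the called member Atg5. Cd79b, in contrast, was brightest on the arrays numbered 3, at 645 in negative and 213 in positive cells. The part of B cells in the values of Ctss, Ctsh, Hexa, Ctso and Atg5 was not tested. Markers of dendritic cells (6, at 101 to 167 summed) and of erythroid cells and platelets (6, at 109 to 143) were dim, and none was called. Fitted differences lay below 0 for 11 of 16 macrophage, 7 of 7 neutrophil, 6 of 6 B cell, 5 of 6 dendritic and 5 of 6 erythroid and platelet markers. The medians (log2) of these lists were -0.16, -0.63, -0.11, -0.17 and -0.24. For T cell markers 9 of 10 lay below 0, at a median of -0.17, and for all genes 8801 of 18193, at 0.01. The part of other cells in the members' values was not tested beyond leaving arrays out.

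Other genes of the compartment gave few calls. Of 141 measured genes in 7 wider lists, 4 were called higher and 4 lower (limma, over all genes), or 2.84% each, against 4.62% and 1.51% of all genes, and their median log2 difference was -0.08. These counts depended on the processing, with 10 lower and 5 higher when a gene's probe sets were averaged and 8 and 3 with centred arrays. They were 7 and 4 with array weights and 7 and 6 without the dimmer genes. The shares of all genes called lower and higher shifted too. They were 2.16% and 5.59% with averaging, 2.09% and 2.76% with centring, 1.92% and 5.88% with weights and 3.61% and 11.2% without the dimmer genes. Among 34 further hydrolases and inhibitors, Gla, encoding alpha-galactosidase A, rose 4.35-fold (adjusted p = 0.0174) and Ifi30, a thiol reductase gene of antigen processing, rose 3.56-fold (adjusted p = 0.0349). In the same list the lysosomal acid phosphatase gene Acp2 fell 3.87-fold (adjusted p = 0.0339) and Acp5, encoding tartrate-resistant acid phosphatase, fell 1.74-fold (adjusted p = 0.0263). Arsb, encoding the sulfatase arylsulfatase B, had separate groups and was called higher with the block alone, at 3.86-fold (adjusted p = 0.0319, against 0.0975 without it). Its negative values, 7.79, 27.4 and 27.4, all lay below the array medians, so this fold rests on levels near background. Hydrolase genes outside the member list thus moved both ways, as Lipa and Gusb did.

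Of 17 further membrane and transporter genes Ostm1, a partner of the lysosomal chloride transporter, fell 1.77-fold (limma, adjusted p = 0.0408), and with the block Slc17a5 (adjusted p = 0.0417) and Ctns (adjusted p = 0.0396) were called lower too. None of 16 V-ATPase genes passed, the proton pump genes with the largest differences being Atp6v1d at -0.59 and Atp6ap1 at -0.57 (adjusted p = 0.18 and 0.171). Before adjustment, 2 genes of that list were higher and 2 lower at p under 0.05, or 12.5% each, near the shares of all genes (14.7% and 7.35%). Of 27 genes for MiT/TFE factors and lysosomal mTORC1 control, Fnip2, a folliculin partner, rose 2.11-fold (adjusted p = 0.0453). Of 9 genes for mannose 6-phosphate sorting Gga2, an adaptor that carries hydrolase receptors, rose 4.11-fold (adjusted p = 0.0294).

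Of 30 further genes of the autophagy machinery, 20 had differences below 0, against 8801 of all 18193 genes. Ulk2, a kinase related to Ulk1, fell 1.88-fold (limma, adjusted p = 0.0329). For 8 of the 30 (26.7%, against 11.2% of all genes) the positive values lay below all negative ones, and for 1 (3.33%, against 17.0%) above. The median log2 difference of that list was -0.27, the same as for the 9 autophagy members. None of 8 autophagy receptors passed, and 2 were lower at an unadjusted p under 0.05, against 7.35% of all genes. The largest differences there were Calcoco1 at -1.34 (adjusted p = 0.0765) and Wdfy3 at -2.32 (adjusted p = 0.528), the latter set by negative array 1 at 992 against 9.61 to 13.5 elsewhere.

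No call on a member or wider list gene outlasted the loss of every single array. Of 18193 genes, none passed by limma once positive array 2 was left out (smallest adjusted p = 0.0591, with 2209 higher and 976 lower genes where p under 0.05 was left unadjusted). Without positive array 1 or positive array 3 no member passed, with 174 and 104 genes higher and 55 and 26 lower overall. Ctsl still passed without any one negative array, Gusb without negative array 1 or 3 and Atg5 without negative array 1. Ctsd was lost without each array in turn (adjusted p = 0.0525 to 0.124), and so was Lipa (0.0608 to 0.103). Leaving out an array also leaves fewer residual degrees of freedom. Centring each array on its median shifted all genes, whose median went from 0.01 to -0.14 (log2), and the split of calls from 840 higher and 275 lower to 502 and 381. With it Atg5 was lost (adjusted p = 0.0544) and Npc1 and Sqstm1 were called lower (0.0444 and 0.0408), and 29 members had differences below 0, since Ctsc, Glb1, Grn and Lamp2 turned below it. Averaging a gene's probe sets ended the calls of Ctsl (0.0842) and Atg5 (0.0636) and added those of Ctso, Map1lc3b and Sqstm1. A trended and robust variance ended that of Ctsd (0.0709). Among the wider list genes named here, that averaging ended the calls of Gla (0.0643) and Acp2 (0.0644) and added Calcoco1 (0.0231), centring ended that of Fnip2 (0.0689), an offset of 16 that of Ifi30 (0.0502), and the trended variance those of Acp5 (0.0574), Fnip2 (0.0558) and Ulk2 (0.0664). Leaving out the dimmer genes kept 33 members, with 4 called lower and 2 higher, against 3.61% and 11.2% of the 9096 genes left.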

How the data were processed

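Sorted leukaemia cells were profiled on Affymetrix mouse arrays, 3 MycGFP negative and 3 MycGFP positive, after amplification of 5 ng of RNA with the Ovation system, per the labels' protocols. Per the submitters' processing notes, RMA made the deposited values (version not given in the sources used here), which are linear intensities, 1 for each probe set. RMA equalises the arrays, which hides any shift of overall RNA content. Log2 of the deposited intensity was taken. Probe sets with 1 symbol in the platform annotation were used (34945 of 45101, without 64 controls), with names updated through the RefSeq table of GRCm38.p6, and the probe set of highest mean stood for each of 18193 genes. Genes were compared across all genes with limma 3.58.1 in R 4.3.3 (lmFit, eBayes, two-sided, Benjamini-Hochberg, threshold 0.05; 4 residual and 2.17 prior degrees of freedom). Folds are antilogs of log2 differences. The script was tested on simulated data. Depth does not apply to arrays; the number of arrays limits the precision.

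Deviations from group means correlated at 0.38, 0.209 and 0.388 between same-numbered arrays and at -0.32 to -0.0319 between others, so the numbers were taken as pairs, although no label says so. Groups came from sample titles. The members and lists were chosen with earlier results of these data known. All members are named; per-array values are given for members called or with separate groups and for the largest and smallest difference of a role, and for some others chosen after their values were seen. Of the wider lists, called genes are named, or else the 2 largest differences. Results were repeated with the block, with each array left out, with the mean of all probe sets, no probe sets ending in _x_at or _s_at, centring, a filter on dim genes, an offset of 16, a trended and robust variance, array weights and, added after seeing the data, both arrays of a number left out.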

Additional observations from a re-analysis of the deposited data

How the results depend on the processing

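The main counts were 3 members called lower and 2 called higher (limma). With the array number as a replicate block they were 5 and 4, with the mean of all probe sets 5 and 1, and with centred arrays 5 and 1. The shares of all genes called lower and higher were 1.95% and 5.75%, 2.16% and 5.59%, and 2.09% and 2.76% in these 3 settings. Without 1 array the member counts ranged from 0 to 1 lower and 0 to 2 higher. Without both arrays of any number they were 0 and 0, where fewer arrays are tested. The other alternatives stayed within 1.5 times. The block left the calls of the 5 members in place, and among members changed no other call than those of Ctsh, Gaa, Cln3 and Sqstm1. Without 1 array, the role medians (log2) ranged from -0.61 to -0.33 for cathepsins, from -0.35 to -0.096 for other hydrolases, from -0.34 to -0.034 for membrane genes and from -0.37 to -0.26 for autophagy genes. The cathepsin median moved by less than the spread between replicates throughout. For other hydrolases it was -0.072 with the mean of all probe sets, -0.36 with centring and 0.073 without both arrays numbered 1. For membrane genes it was 0.0038 without probe sets ending in _x_at or _s_at. For autophagy genes it was -0.14 with the mean of all probe sets, -0.42 with centring, -0.40 without dim genes, -0.32 with array weights, and -0.43, -0.38 and -0.40 without both arrays numbered 1, 2 and 3. The cause was not tested for any of these beyond the fewer arrays or genes used. No called member changed sign in any setting. The number of arrays and levels near background limit Cln3, Tfeb and Ctsh, and Arsb among the wider list genes.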
